A study of Mus musculus with 2 samples.

Results

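Thbs1 and Ctgf encode secreted matricellular proteins, which sit in the extracellular matrix and signal to cells rather than bear load. Thbs1 encodes thrombospondin-1, a multidomain glycoprotein that binds cell surface receptors, proteases and growth factors. Ctgf, whose current RefSeq symbol is Ccn2, encodes connective tissue growth factor, a cysteine-rich protein of the CCN family. Fibroblasts are known to make both. Both genes are known for rapid transcription in response to serum and transforming growth factor beta, and both are widely used as readouts of the YAP and TEAD transcription factors. These are general facts about the genes and were not measured here.

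The 2 genes were chosen by their RNA polymerase II (Pol II) level in these same data, so that level is given as a description, with no test. They are 2 of 42358 regions called in both libraries, a region being a run of 500 bp windows that each stood above background in both. The study is a ChIP-seq experiment, in which DNA bound by Pol II is precipitated and sequenced, on mouse embryonic fibroblasts kept in medium with 10% fetal serum. Both libraries, here library 1 and library 2, came from the same cell type and the monoclonal antibody 8WG16, which recognises the heptad repeats of the large Pol II subunit and is known to favour repeats that carry little phosphate. They form 1 group, with no treated arm and no genotype, age or strain given in the labels. The labels give an upper gel size of 350 bp for library 1 and 300 bp for library 2 and their run codes differ, so a difference between the libraries cannot be told apart from gel slice or run. No label says that they came from separate cultures, so SDs measure only the spread between these samples, which may be technical. The p-values come from read counts and cover counting error only.

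Library 1 held 17548967 reads and library 2 held 10941174, after reads sharing a start and strand were reduced to 1 (collapsed). Levels are in RPM, reads per 1000000 collapsed reads of that library, or in RPM per kb of sequence. Where all reads were kept, RPM is per 1000000 of all alignments placed at 1 site, 19517362 in library 1 and 11461457 in library 2. The background, the mean of the windows left after enriched ones were taken out, was 0.389 RPM per kb in library 1 and 0.236 in library 2. No input library was analysed here, so a fold over background is against the same library. In a bulk culture, more cells that transcribe a gene and more Pol II per cell cannot be told apart. Intervals given below are 95% exact ones and cover counting error only, because PCR reads without molecular identifiers are not independent molecules.

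Thbs1 lay on chr2:117800501-117822500 in mm8, a stretch of 22 kb on a gene of the plus strand. Its density was 49.7 RPM per kb in library 1 and 109 in library 2, a mean of 79.3 ± 41.9 (SD, n = 2). Library 2 stood above library 1 at 2.19 times the RPM. Ctgf lay on chr10:24284501-24290000 in mm8, 5.5 kb on a gene of the plus strand. It held 3392 collapsed reads in library 1 and 5625 in library 2. Those were 193 RPM (interval 187 to 199.9) in library 1 and 514 (501 to 528) in library 2, a mean of 354 ± 227 (SD, n = 2), or 90.4-fold and 396-fold over background. Per kb, Ctgf had 35.1 RPM in library 1 and 93.5 in library 2, a mean of 64.3 ± 41.2 (SD, n = 2). As for Thbs1, library 2 was the higher one, at 2.66 times the RPM of library 1. Assignment of both stretches to the genes came with the choice of members and not from an annotation of mm8, so gene ends were not placed on them.

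Thbs1 had the most RPM of all 42358 regions and Ctgf was number 24 in that order. Ordered by RPM per kb, among the 7279 regions at least 2.5 kb wide, they were numbers 1 and 2. The width limit was set after the data were seen, and the order uses the level that chose the genes. Within a library, Thbs1 was the denser one, at 1.41 times Ctgf in library 1 and 1.17 times in library 2, a mean ratio of 1.29 ± 0.176 (SD, n = 2). With all reads kept the ratio was 1.76 in library 1 and 1.44 in library 2.

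All 44 of the 500 bp windows of Thbs1 and all 11 of Ctgf were above background in both libraries (one-sided exact Poisson test, threshold 0.01 after Benjamini-Hochberg adjustment). Of all 4308660 windows tested, 3.41% passed in library 1, 9.02% in library 2 and 2.9% in both. The level chose the genes and their stretches, so nothing is read from these counts. When the mean over 5 or 10 kb around each window took the place of a lower library background, 6 windows of Thbs1 and 5 of Ctgf passed in both, and by construction a long enriched stretch then raises its own background.

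The stretches were divided by their own reads. The upstream and downstream edges are the first and last position where the smoothed mean of both libraries reached 50% of the median 100 bp bin. For Thbs1 they fell at chr2:117803301-117820800, 17.5 kb apart, and for Ctgf at chr10:24284901-24289500, 4.6 kb apart. Edges placed on 1 library alone moved by 100 bp at most. The start is the first 1 kb inside the upstream edge, the middle the central 50% between the edges, and the trailing segment the last 1 kb before the downstream edge. The flanks are the 3 kb before the upstream edge and the 3 kb past the downstream edge.

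At the upstream edge of Thbs1 the level rose within 100 bp. The last 100 bp bin before the edge held 4 reads in library 1 and 2 in library 2, or 2.28 and 1.83 RPM per kb. The first bin inside held 133 reads and 117, or 75.8 and 107 RPM per kb. That was a step of 33.2-fold (interval 12.7 to 124) in library 1 and 58.5-fold (15.8 to 489) in library 2. From bin to bin the Ctgf edge was less steep, with 10.3 RPM per kb before it and 56.4 inside it in library 1, and 37.5 and 74.9 in library 2. Its step was thus 5.50-fold (3.31 to 9.66) in library 1 and 2.0-fold (1.36 to 2.99) in library 2. The order depends on what the first bin is set against, because the last bin before Thbs1 is a trough. Against the whole kb before the edge, the first bin of Thbs1 was 11.8-fold higher in library 1 (9.09 to 15.3) and 8.48-fold in library 2 (6.57 to 10.9), and that of Ctgf 38.1-fold (24.5 to 61.1) and 11.2-fold (8.09 to 15.6). Since bin borders were set by the edge itself, the steps describe these profiles and were not tested.

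**Figure D1:**
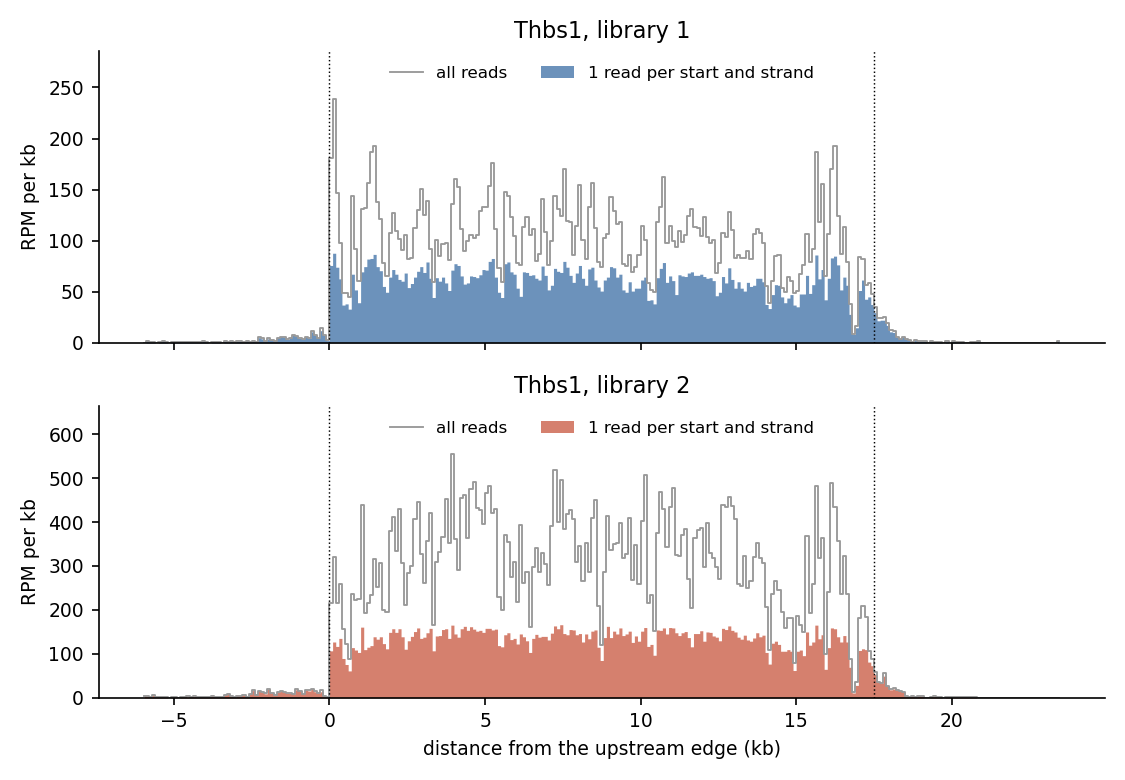
Pol II over Thbs1 in 100 bp bins, in RPM per kb against distance from the upstream edge in kb, with library 1 above and library 2 below on separate scales. Filled areas show 1 read per start and strand, grey lines all reads, and dotted lines the edges 17.5 kb apart. Both libraries rise at the upstream edge, from 2.28 to 75.8 RPM per kb in library 1 and from 1.83 to 107 in library 2 for collapsed reads. They remain high over most of the body. A narrow gap lies 16.85 kb inside the upstream edge, with 8.55 RPM per kb in library 1 and 11 in library 2.

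Over the start of Thbs1 library 1 had 56.7 RPM per kb (interval 53.2 to 60.3) and library 2 had 104 (98.0 to 110.1). Over the middle they had 63.3 (62.0 to 64.6) and 143 (141 to 146). The start was thus lower than the middle in both, at 0.896 times (interval 0.838 to 0.956) in library 1 and 0.725 times (0.682 to 0.770) in library 2, with a mean of 0.810 ± 0.121 (SD, n = 2). With all reads kept, the start was at 1.02 times the middle in library 1 (0.977 to 1.07) and 0.586 times in library 2 (0.562 to 0.611). Within that first kb the level was uneven. A start of 500 bp in place of 1 kb turned the direction in library 1, to 1.07 times the middle, and gave 0.803 times in library 2. The bin centred 150 bp inside the edge had 87.8 RPM per kb in library 1, the highest of its 175 bins, and 127 in library 2. The bin centred 650 bp inside had 33.1 and 61.2.

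In windows of 500 bp, Pol II remained high over the body of Thbs1. The 34 windows that lay wholly between the edges ran from 16.4 to 39.7 RPM in library 1, with a median of 31.1, and from 32.8 to 79.2 in library 2, with a median of 69.1. The highest exceeded the lowest 2.42-fold in library 1 and 2.41-fold in library 2, and their coefficient of variation was 14.6% and 13.9%. The highest window of library 1 was chr2:117804501-117805000, 1.45 kb inside the edge, and that of library 2 was chr2:117807501-117808000, 4.45 kb inside. Toward the downstream edge the level first fell and then rose. Window chr2:117818001-117818500, 14.95 kb inside the edge and chosen after its values were seen, had 21.1 RPM in library 1 and 49.3 in library 2. The next 3 windows had 30.5 to 33.4 RPM in library 1 and 61.6 to 69.2 in library 2. The trailing segment was at 0.648 times the middle (interval 0.60 to 0.699) in library 1 and 0.60 times (0.562 to 0.641) in library 2. It held a narrow gap, the lowest of the 175 bins in both libraries, 16.85 kb inside the edge, with 8.55 RPM per kb in library 1 and 11 in library 2. Whether reads of this length can be placed uniquely there was not tested.

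Past the downstream edge the Thbs1 level fell over about 1 kb. The first kb had 15 RPM in library 1 and 28.5 in library 2. The second had 1.71 and 2.56, or 4.40-fold and 10.8-fold over background. The 3 kb flank as a whole was at 9.12% of the middle in library 1 and 7.59% in library 2, a mean ratio of 0.0835 ± 0.0109 (SD, n = 2). With all reads kept it was at 5.93% and 3.23%. Farther on neither library placed a collapsed read in 2500 bp, from 3.4 to 5.9 kb past the edge, where background alone would give 17.1 reads in library 1 and 6.46 in library 2. Reads placed at 2 sites were also at 0 there in both libraries, and whether reads can be placed there at all was not tested. At 10 to 20 kb past the edge the level was 0.703-fold of background in library 1 and 0.581-fold in library 2.

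Before the upstream edge Thbs1 had a low shelf, highest over about 3 kb. Its first kb out had 6.44 RPM in library 1 and 12.6 in library 2, its second 5.07 and 12.7, and its last 2.17 and 9.14. The kb before those had 0.798 and 3.38. Library 2 stood above library 1 in each of those 4 steps. In the single kb from 4 to 10 kb out, library 1 was 1.76-fold to 2.78-fold over background. Library 2 was 5.42-fold to 10.8-fold over its own there, so the level stood above background in both, and more so in library 2. The 3 kb flank was at 7.20% of the middle (interval 6.31 to 8.19) in library 1 and 8.01% (7.21 to 8.87) in library 2. The same flank of Ctgf was at 2.41% of its middle (1.79 to 3.18) and 2.47% (2.0 to 3.01). The difference between the genes was not tested, because the shelf lies in the stretch that chose Thbs1. In the RefSeq gene order of GRCm38.p6, used for names only, the nearest gene before Thbs1 is Gm13986, a long noncoding RNA gene on the minus strand, and the nearest after it is Fsip1. Reads of this assay do not show which gene they belong to.

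The shape of Ctgf differed between the libraries. In library 1 the start had 51.5 RPM per kb (interval 48.2 to 55.0) against 40.2 (38.3 to 42.2) over the middle, so the start was higher, at 1.28 times (1.18 to 1.39). In library 2 the start had 83.1 (77.8 to 88.7) against 122 (118 to 127), so the start was lower, at 0.680 times (0.631 to 0.732). The mean ratio of 0.980 ± 0.425 (SD, n = 2) therefore describes neither library. The ratio lay above 1 in library 1 and below 1 in library 2 with all reads kept too, at 1.41 and 0.516. The highest bin of library 1 was centred 150 bp inside the edge, at 66.1 RPM per kb, and the highest of library 2 was centred 2.35 kb inside, at 155.

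**Figure D2:**
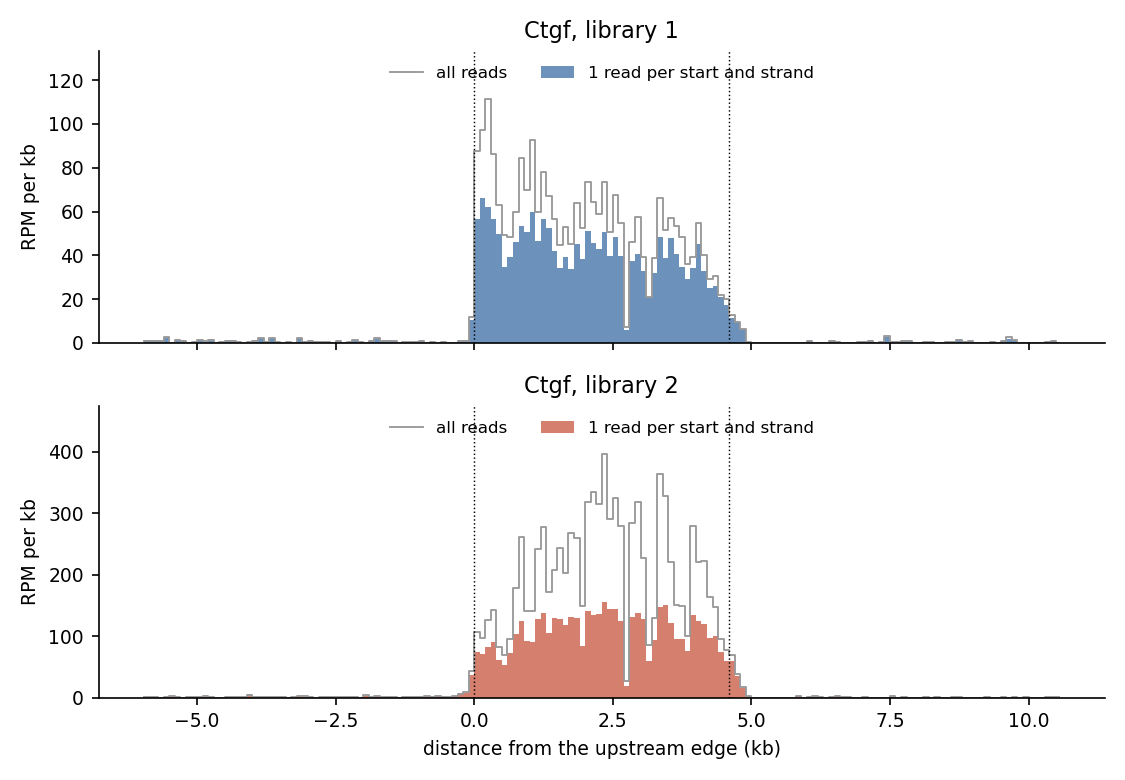
Pol II over Ctgf in 100 bp bins, in RPM per kb against distance from the upstream edge in kb, with library 1 above and library 2 below on separate scales. Filled areas show 1 read per start and strand, grey lines all reads, and dotted lines the edges 4.6 kb apart. Library 1 is highest near the upstream edge, at 66.1 RPM per kb, and library 2 near the middle, at 155.

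Across the body of Ctgf the 9 windows between the edges ran from 12.3 to 26.9 RPM in library 1, with a median of 20.7, and from 36.1 to 71.7 in library 2, with a median of 54.1. The highest window was chr10:24285001-24285500 in library 1 and chr10:24287001-24287500 in library 2. The lowest window of the whole stretch was its last, chr10:24289501-24290000, with 2.79 and 11.4 RPM, and its first, chr10:24284501-24285000, had 6.89 and 13.1. The trailing segment was at 0.761 times the middle (interval 0.689 to 0.840) in library 1 and 0.801 times (0.746 to 0.859) in library 2. A narrow gap stood 2.75 kb inside the edge in both, where 1 bin had 5.70 RPM per kb in library 1 and 19.2 in library 2. The bins on either side of it had 39.9 and 37.6 in library 1 and 125 and 131 in library 2. As for the gap in Thbs1, whether reads can be placed uniquely there was not tested.

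Past its downstream edge Ctgf stood lower than Thbs1 relative to its own middle. The first kb had 2.79 RPM in library 1 and 11.4 in library 2, and the second 0.285 and 1.10. The 3 kb flank was at 3.07% of the middle (interval 2.36 to 3.93) in library 1 and 3.56% (2.99 to 4.22) in library 2, below the 9.12% and 7.59% of Thbs1, whose intervals were 8.11 to 10.2 and 6.81 to 8.43. The flanks are not alike, since that of Ctgf holds a stretch without reads and that of Thbs1 does not. Neither library placed a collapsed read from 0.4 to 1.2 kb past the Ctgf edge, where background would give 5.46 reads in library 1 and 2.07 in library 2, and 1 read of library 1 and 4 of library 2 were placed there at 2 sites. With that stretch left out, an alternative added after the data were seen, the Ctgf flank was at 4.19% of the middle in library 1 and 4.86% in library 2. With each library's segments placed on the other library it was at 2.18% and 5.21%, so the value depends on where the edge is put. The difference between the genes was not tested. The fall of Ctgf ran into the stretch without reads, and where Pol II ended beyond it was not measured. In the gene order of GRCm38.p6, Ccn2 is overlapped by Gm15270, a long noncoding RNA gene on the minus strand, and followed by Enpp1, which is on the minus strand.

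**Figure D3:**
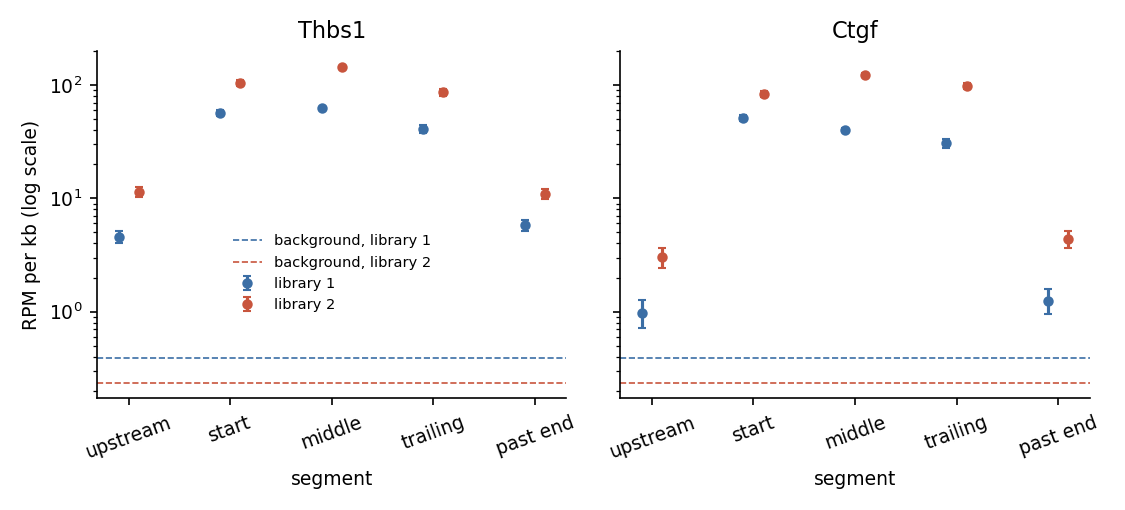
Collapsed RPM per kb, on a log axis, in the 5 segments of Thbs1 and Ctgf in each library, with 95% exact Poisson intervals as bars and the library background as dashed lines. The upstream flank of Thbs1 stands at 4.56 RPM per kb in library 1 and 11.5 in library 2, above the 0.969 and 3.02 of Ctgf.

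Regions called in both libraries near either gene are named here as a description, and their number was not set against a rate over the genome. Within 100 kb of the Thbs1 stretch, they were chr2:117746501-117747000, 53.5 kb before it, with 0.855 RPM in library 1 and 0.640 in library 2, and chr2:117870501-117871500, 48.0 kb past it, with 1.54 and 2.10. Within 100 kb of Ctgf the only one was chr10:24262001-24262500, 22 kb before it, with 0.684 and 1.19 RPM. By itself, library 2 called 55 of the 200 windows before Thbs1 (27.5%) and 24 of the 200 before Ctgf (12%), against 9.02% of all windows in that library. Past the end it called 8 of 200 (4%) and 2 of 200 (1%). Library 1, in which 3.41% of all windows were called, called 3 of 200 (1.5%) on either side of Thbs1 and 1 of 200 (0.5%) on either side of Ctgf. Neighbouring windows are not independent, and these shares were not tested. At 10 to 20 kb upstream Thbs1 had 1.82 times the background of library 1 and 3.91 times that of library 2, and Ctgf had 1.26 and 2.44 times.

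The libraries were then compared window by window. The genes were chosen by their level in these same 2 libraries, so the ratio is not independent of that choice. The counts of windows that passed are given as a description. Counts were scaled by each library's reads in windows called in both, and each window called in either was tested with an exact two-sided conditional binomial test with Benjamini-Hochberg adjustment over 410963 windows at 0.01. This compares these 2 libraries and not conditions. The share of all these windows that passed was 0.567% toward library 2 and 0.55% toward library 1. Of the 44 windows of Thbs1, 30 passed as higher in library 2 and 0 as higher in library 1. The ratios of the 30 ran from 1.25 to 3.74, with a median of 1.36 and adjusted p between 6.2e-12 and 0.0097. The 3.74 belongs to the first window of the stretch, on the shelf before the upstream edge, with 12 reads in library 1 and 46 in library 2. Between the edges the 34 windows, passing or not, had ratios from 0.991 to 1.55. Of the 11 windows of Ctgf, 8 passed as higher in library 2 and 0 as higher in library 1, with ratios from 1.66 to 2.49, a median of 1.89 and adjusted p between 4.3e-23 and 1.1e-05. Both shares stand far above the background share, and these windows hold more reads than most, so that smaller ratios can pass. Scaled to all collapsed reads, 43 of 44 and 11 of 11 windows passed, all higher in library 2. With all reads kept, 36 windows of Thbs1 passed toward library 2 and 1 toward library 1, and for Ctgf these counts were 9 and 1.

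The windows that did not pass were mostly at the ends. In Thbs1, 7 windows in a row from 1.55 kb before the edge to 1.45 kb inside it did not pass, and neither did the last 5, and 2 more lay inside the body. In Ctgf the first 3 did not pass. Outside the edges some windows held few reads. The one 1.55 kb before the Thbs1 edge did not pass at a ratio of 1.59, from 40 reads in library 1 and 65 in library 2. The 2 outermost windows before that edge passed, at 3.74 and 2.22. Failing to pass outside the edges thus does not show a smaller ratio there. Inside the edges, reads summed over segments give the size of the difference between start and body. This difference was noticed in these data and is described here with no test. Library 2 had 1.83 times the RPM of library 1 over the Thbs1 start and 2.27 times over its middle, so the ratio was 1.24 times larger over the middle (interval 1.13 to 1.35). For Ctgf it had 1.61 times over the start and 3.04 times over the middle, so the ratio was 1.88 times larger over the middle (1.69 to 2.10). With all reads kept these values were 1.74 and 2.73. Against the trailing segment they were 1.14 (1.01 to 1.30) for Thbs1 and 1.98 (1.73 to 2.28) for Ctgf. The intervals cover counting error between 2 libraries, and the part of gel slice, run or culture was not tested.

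**Figure D4:**
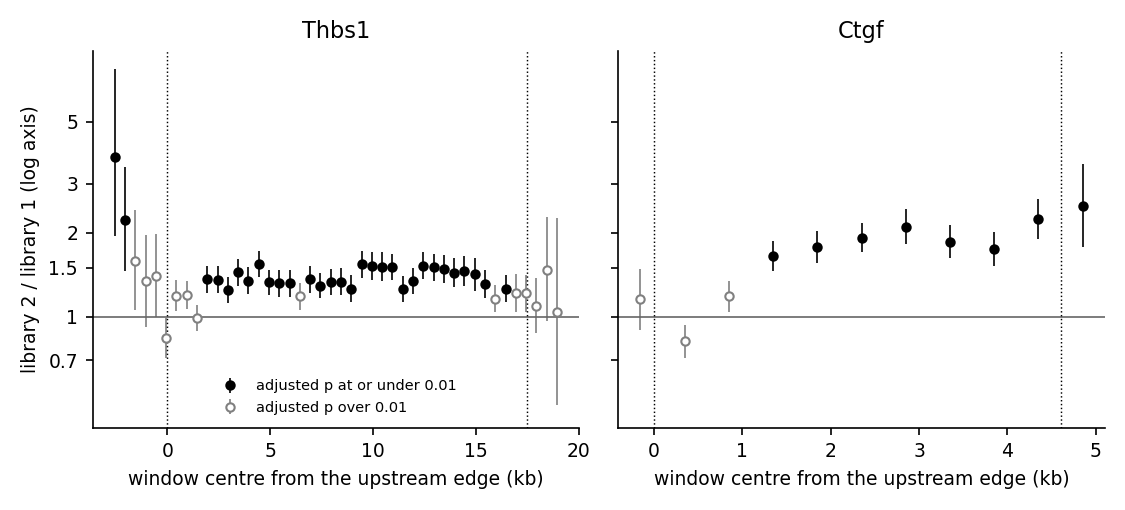
Library 2 over library 1 in each 500 bp window, scaled as in the test and drawn on a log axis against the window's distance from the upstream edge in kb. Bars are 95% exact intervals, filled points passed the exact binomial test at an adjusted p of 0.01, and dotted lines are the edges. Ratios near the upstream edge of both genes lie close to 1, and the 8 filled points of Ctgf, of which the last lies past the downstream edge, run from 1.66 to 2.49.

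The whole stretch of Thbs1 was 2.19 times higher in library 2 by RPM and that of Ctgf 2.66 times, or 1.34 and 1.62 times when scaled to windows called in both. By RPM, the scale of the 2.19 and 2.66, the median of all regions was 1.37, and that of regions at least 2.5 kb wide was 1.66. No median was taken on the other scale, so the 1.34 and 1.62 have none to be set against. Among the 10 regions with the most reads the RPM ratio ran from 1.70 to 3.21. Thbs1 is among those 10 and lies in that range by construction, and Ctgf, at 2.66, also lay in it. The 10 were ordered by the same reads, so the range is a description.

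Strand was not used to choose the genes. A ChIP fragment can be read from either end, so an even split does not speak to the direction of transcription. Plus-strand reads made up 49.96% (interval 49.2 to 50.7) of Thbs1 in library 1 and 50.03% (49.4 to 50.6) in library 2. For Ctgf they made up 51.2% (49.5 to 52.9) and 50.3% (49 to 51.6). For none of the 4 shares did a two-sided exact binomial test against 50% pass, with an adjusted p of 1 in each case. Collapsing allows 1 read per start on each strand. Where many starts are in use, this limits how uneven a share can become and weakens the test. Of all 42358 regions, 0.00236% were unequal in library 1 and 0.00708% in library 2. With all reads kept, the Ctgf share was 51.5% in library 2 (50.6 to 52.5), with an unadjusted exact binomial p of 0.0016. That was the smallest of the 4. The same test gave 0.41 and 0.42 for Thbs1 in library 1 and library 2, and 0.36 for Ctgf in library 1. It counts repeated reads as if they were independent, so these p-values can be too small.

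The strands were offset at the upstream edge. Unshifted plus-strand 5′ ends of Thbs1 reached 50% of the level just inside 100 bp before the minus-strand ends in both libraries. For Ctgf the offset was 80 bp in library 1 and 160 bp in library 2. Positions were read in steps of 20 bp, and the measure was added after the data were seen. At the downstream edges, where the level fell gradually, the offset ranged from -220 to 120 bp and gave no common order.

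Collapsing repeated starts limited how high a window could go. A window of 500 bp has 1000 start positions over both strands, which allow 57.0 RPM in library 1 and 91.4 in library 2. The fullest Thbs1 window had 69.6% of its positions in use in library 1 and 86.6% in library 2, and the fullest Ctgf window between the edges 47.2% and 78.5%. Between the Thbs1 edges 53.3% of 35000 positions were in use in library 1 and 73.0% in library 2. Between the Ctgf edges, 36.1% of 9200 were in use in library 1 and 59.1% in library 2. Library 2 thus lay nearer its limit at both genes although it held fewer reads in all.

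Repeated starts were common over both genes. They made up 47.2% of the alignments between the Thbs1 edges in library 1 and 59.0% in library 2, and 33.8% and 49.1% between the Ctgf edges. Outside windows called in either library they made up 8.79% and 2.64%. Library 1 had more of them outside these windows, and library 2 had more of them at both genes. Each start in use held 1.90 alignments in library 1 and 2.44 in library 2 at Thbs1, and 1.51 and 1.97 at Ctgf. The most on a single start was 13 and 16 at Thbs1 and 8 and 9 at Ctgf. The share of starts with 5 alignments or more was 4.48% and 11% at Thbs1, and 1.29% and 5.13% at Ctgf.

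If alignments fell evenly and independently over the positions, the share in use would imply 0.762 alignments per position of Thbs1 in library 1 and 1.31 in library 2. The files held 1.01 and 1.78, or 1.33 and 1.36 times as many. For Ctgf the share in use implied 0.448 and 0.895, and the files held 0.545 and 1.16, or 1.22 and 1.30 times as many. What lay behind the excess was not tested. Neither library used 15.8% of the positions of Thbs1 and 28.4% of those of Ctgf. This calculation was added after the data were seen.

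Keeping all reads raised Ctgf from 193 to 261 RPM in library 1 and from 514 to 952 in library 2, and the ratio of library 2 to library 1 from 2.66 to 3.64. The same ratio for Thbs1 rose from 2.19 to 2.98. Windows then differed more from one another. The highest Thbs1 window between the edges exceeded the lowest 3.46-fold in library 1 and 4.27-fold in library 2 with all reads, against 2.42-fold and 2.41-fold collapsed. For Ctgf this was 2.87-fold and 3.21-fold with all reads, against 2.20-fold and 1.99-fold collapsed.

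**Figure D5:**
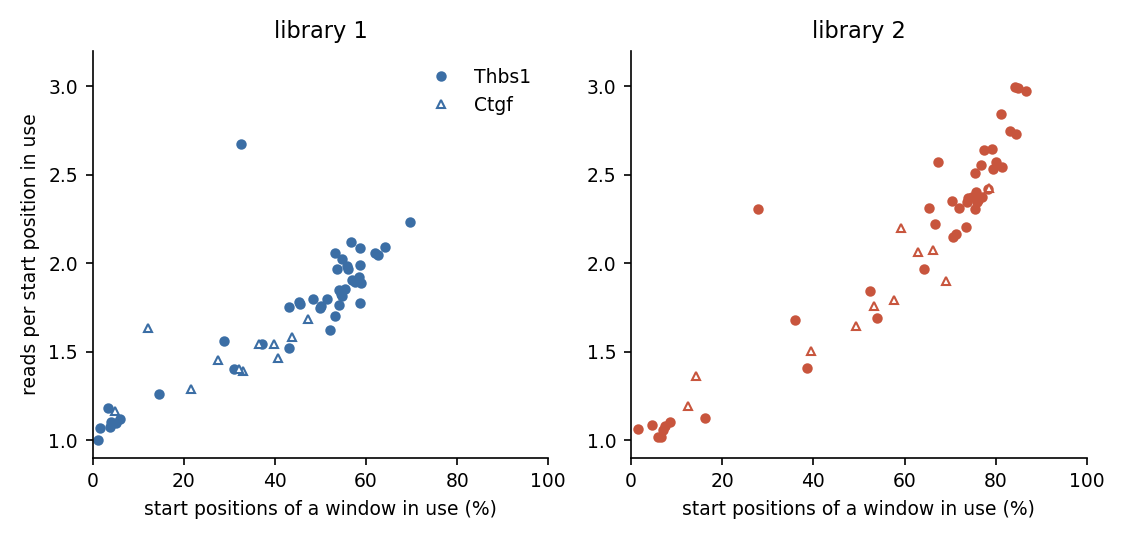
Alignments per start position in use against the percentage of start positions in use, for each 500 bp window of Thbs1 (filled circles) and Ctgf (open triangles), with library 1 on the left and library 2 on the right. In general, windows with more positions in use hold more alignments per position, up to 86.6% of positions in use in library 2, and Thbs1 windows reach farther than Ctgf windows in both. The circle that stands apart on each side is the window that straddles the upstream edge of Thbs1, of which only a part is enriched.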

How the data were processed

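Pol II ChIP-seq reads of 2 libraries were analysed. The authors aligned them with Bowtie to mm8 (options -e 70, -k 2, -m 2, -n 2 and -l 36), per the file headers, which give no version. The deposited files list alignments as signed offsets by chromosome, with reads placed at 1 and at 2 sites apart, and no other unit. Reads fitting over 2 sites were dropped, which lowers counts over repeats.

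Here, offsets were taken as left-most bases counted from 0, read from the values. Reads of 36 bases placed at 1 site were collapsed to 1 per start and strand, and 5′ ends were shifted by 60 bp and counted in 500 bp windows. Background was the mean after 3 rounds of removing called windows. Called windows were joined across gaps of up to 1 window, and each gene's stretch is the joined run with the most reads in the interval searched. Windows named are the highest, lowest, first and last of a gene, and 1 chosen after its values were seen. The calls and tests were checked on simulated counts, drawn independently from the distributions that the tests assume. That check does not cover repeated reads or neighbouring windows that are not independent. The genes, rules and lists were chosen with earlier results of these data known. Scripts ran on Python 3.11.15 with SciPy 1.17.1, NumPy 2.4.6 and, for figures, matplotlib 3.10.9. An mm8 annotation and promoter and protein entries for the genes were not used here, so planned motifs, protein features and a list of related genes were not evaluated. GRCm38.p6 served for gene names and order only.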

Additional observations from a re-analysis of the deposited data

How the results depend on the processing

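The levels, ratios, strand shares and window counts were recomputed with all reads kept. Levels and their density ratio were recomputed with reads placed at 2 sites added, levels, that ratio and segment ratios with other shifts, segment ratios with other segments, levels and windows differing with another scaling, calls with another threshold and background, and all but the window counts and the ratios between libraries without each library. Keeping all reads moved the Thbs1 level to 3673 RPM, the Ctgf level to 607 RPM, their density ratio to 1.60, Thbs1 past end over middle to 0.0458, Ctgf past end over middle to 0.0215, and start against middle between libraries to 1.74 for Thbs1 and 2.73 for Ctgf. Segments of 500 bp moved Thbs1 start over middle to 0.935, above 1 in library 1, and they give no value for the flank past the end, which does not depend on them. Placing each library's segments on the other library moved Ctgf past end over middle to 0.0369, and leaving out the stretch without reads moved it to 0.0452. A local background left 6 windows of Thbs1 and 5 of Ctgf called in both libraries. With 1 library left out, the Thbs1 level ran from 1094 to 2398 RPM, the Ctgf level from 193 to 514, their density ratio from 1.17 to 1.41, start over middle from 0.725 to 0.896 for Thbs1 and from 0.680 to 1.28 for Ctgf, and past end over middle from 0.0759 to 0.0912 and from 0.0307 to 0.0356. Shifts of 0 and 100 bp left the reads in both stretches the same in number. The cause of each move was not tested. No paired analysis was possible because there is only 1 group. With 2 libraries and no input analysed, the spread rests on 1 difference, and a collapsed level near the limit of start positions understates the level. Groups of 2 are too small to single out a sample.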
